A study of Mus musculus with 5 samples.

Results

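The panel described here holds 10 genes that mark the epithelial and the mesenchymal side of a carcinoma cell, read in the cancer cells of 2 libraries from mouse lung. It consists of 4 keratins (Krt7, Krt8, Krt18 and Krt19), 5 genes of cell junctions and cell adhesion (Epcam, Cdh1, Cldn3, Cldn4 and Cldn7) and Vim. The genes were picked by name from the 23771 genes of the deposited gene table. All 10 were in the table, and all 10 passed the filter that 10201 genes passed, a UMI in 10% or more of the cells of one group or the other. Cdh1 and Cldn3 passed it through TSF alone, the group where they were higher. A UMI (unique molecular identifier) stands for 1 captured RNA molecule.

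The cancer cells were 4T1 cells, a line of mouse mammary carcinoma, made to express the reporter CD90.1, a Thy1 variant. Female BALB/c mice, aged 6 weeks at the start, received intravenous medium in which primary tumor pieces had been kept, called tumor-secreted factors (TSF), or control medium (CM) kept without tumor, 3 times per week for 3 weeks. Afterwards 25000 cancer cells were injected intravenously, and the lungs were taken at day 16, when the mice were 11 weeks old, from both groups described here. Each library pooled the dissociated lungs of 3 mice, so every group had 1 library, no difference between TSF and CM had a replicate check, and no test between them was made. The labels name 4T1 or EMT6.5 tumors as the source of the conditioned medium, and the study states 4T1 tumors for the sequenced lungs.

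Keratins are the intermediate filament proteins of epithelia, built as pairs of a type II chain (Krt7 or Krt8) and a type I chain (Krt18 or Krt19). Cdh1 (E-cadherin) holds neighboring epithelial cells together at adherens junctions, claudins form the strands of tight junctions, and Epcam is an epithelial adhesion molecule that binds claudin-7. Vim (vimentin) is the intermediate filament protein of mesenchymal cells, leukocytes and many carcinoma cells in culture. In an epithelial to mesenchymal transition (EMT), transcription factors of the Snail, Zeb and Twist families lower Cdh1 and other junction genes, while Vim is high.

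The cancer cells numbered 29 in the CM library and 139 in the TSF library. Their median depth was 27679 UMIs per cell in CM and 26615 in TSF. The range was wide in both, from 973 to 51807 UMIs in CM and from 909 to 69674 in TSF, and 8 CM cells (27.6%, exact 95% interval 12.7 to 47.2%) and 14 TSF cells (10.1%, interval 5.62 to 16.3%) lay under 10000 UMIs. The authors' first clustering put the cancer cells into 2 clusters. One of them held 6 CM cells (20.7%, interval 7.99 to 39.7%) and 85 TSF cells (61.2%, interval 52.5 to 69.3%), and the other cluster held 23 and 54. Levels of the panel within each cluster were not analysed here, so the part of this shift in the differences below was not tested. The libraries shared 31 cell barcodes, and no barcode was that of a cancer cell in both libraries. The authors state that doublets were not removed among cancer cells.

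The names of the cells were checked against their own markers. Krt8 had a UMI in 29 of 29 CM cells and 137 of 139 TSF cells, and Krt18 in 28 and 138. The reporter CD90.1 had a UMI in 2 CM cells (6.90%, interval 0.846 to 22.8%) and 48 TSF cells (34.5%, interval 26.7 to 43.1%). Epcam, also chosen as a marker, had a UMI in 8 CM cells (27.6%, interval 12.7 to 47.2%) and 95 TSF cells (68.3%, interval 59.9 to 76.0%). Krt8 and Krt18 thus marked nearly every cell of both libraries, whereas the reporter and Epcam did not.

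The 250 bases in front of the annotated start are shown for 3 junction genes, whose RNA was higher in TSF cells, and a shorter window for Krt18, whose RNA was not. Capitals mark the letters CAGGTG on either strand (CACCTG when read on the gene's strand), the E-box form that Snail and Zeb factors are known to bind. The sequences are from RefSeq on GRCm38.p6, run 5′ to 3′ on the strand of the gene, and lie outside the gene in GENCODE M21. The Krt18 window stops at 214 bases because the GENCODE gene begins there.
Epcam, chr17:87635729-87635978, plus strand: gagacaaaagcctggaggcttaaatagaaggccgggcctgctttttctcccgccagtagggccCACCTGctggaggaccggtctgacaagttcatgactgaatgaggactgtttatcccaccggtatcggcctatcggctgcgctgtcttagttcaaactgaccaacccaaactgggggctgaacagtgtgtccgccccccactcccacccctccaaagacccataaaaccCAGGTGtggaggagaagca
Cldn4, chr5:134946935-134947184, minus strand: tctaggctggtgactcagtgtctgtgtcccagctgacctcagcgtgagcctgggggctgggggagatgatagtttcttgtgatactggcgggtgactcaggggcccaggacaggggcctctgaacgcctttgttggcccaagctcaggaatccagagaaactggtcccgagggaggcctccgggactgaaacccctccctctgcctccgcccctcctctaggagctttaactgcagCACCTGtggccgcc
Cldn3, chr5:134985964-134986213, plus strand: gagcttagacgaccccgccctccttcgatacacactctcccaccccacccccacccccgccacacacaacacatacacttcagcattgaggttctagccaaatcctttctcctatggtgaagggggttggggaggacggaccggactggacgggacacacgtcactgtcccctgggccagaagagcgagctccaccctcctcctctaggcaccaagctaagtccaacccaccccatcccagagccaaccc
Krt18, chr15:102027966-102028179, plus strand: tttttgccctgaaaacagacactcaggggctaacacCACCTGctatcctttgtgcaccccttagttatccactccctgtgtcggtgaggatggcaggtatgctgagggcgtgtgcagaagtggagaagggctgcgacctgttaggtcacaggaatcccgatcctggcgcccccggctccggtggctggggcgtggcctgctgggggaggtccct

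The Epcam window held 2 matches, at positions -187 and -19 from the start, Cldn4 held 1 match at -14, and Cldn3 held 0. The Krt18 window held 1 match, at -214 from the RefSeq start. Of all 32851 RefSeq windows of 250 bases, 17.2% held at least 1 match and 2.06% held 2 or more. RefSeq windows were matched for 8 of the 10 genes, all but Cdh1 and Krt19. Krt7 and Krt8 held 1 match each, Cldn7 held 0 before its first start and 2 before its second, and Vim held 0. A match is a run of letters and not a measured binding site, and both junction genes and keratins hold it.

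The comparison of day 16 asked whether epithelial genes differed between cancer cells grown in TSF-primed and in control lungs. All 5 junction genes and 3 of the 4 keratins had a higher mean level in TSF cells, while Krt18 and Vim were lower. Ratios of TSF over CM were 1.80 to 9.62 for the 4 junction genes with a UMI in CM. They were 0.863 to 1.46 for the 4 keratins and 0.777 for Vim. With the pseudocount given below, Epcam alone of the 10 genes passed 1.5-fold. In sum, the junction genes had 0.521 CP10k in CM and 2.47 CP10k in TSF, a ratio of 4.73. Without Epcam their sum was 0.326 CP10k in CM and 1.19 CP10k in TSF, a ratio of 3.64. The keratins had 30.5 CP10k in CM and 29.2 CP10k in TSF, a ratio of 0.958, and Krt18 was the largest part of both sums. CP10k is the number of UMIs of a gene per 10000 UMIs of a cell, averaged by the authors over all cancer cells of a library, those without a UMI included. Of the 10201 genes that passed the filter, 40.3% had a higher CP10k in TSF, against 8 of the 10 panel genes. Cdh1 and Cldn3, which are among these 8, passed the filter through TSF alone. Differences are given as the log2 of the ratio of CP10k plus a pseudocount of 1, which holds low genes close to 0, and a gene is called at 1.5-fold on that scale.

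**Figure D1:**
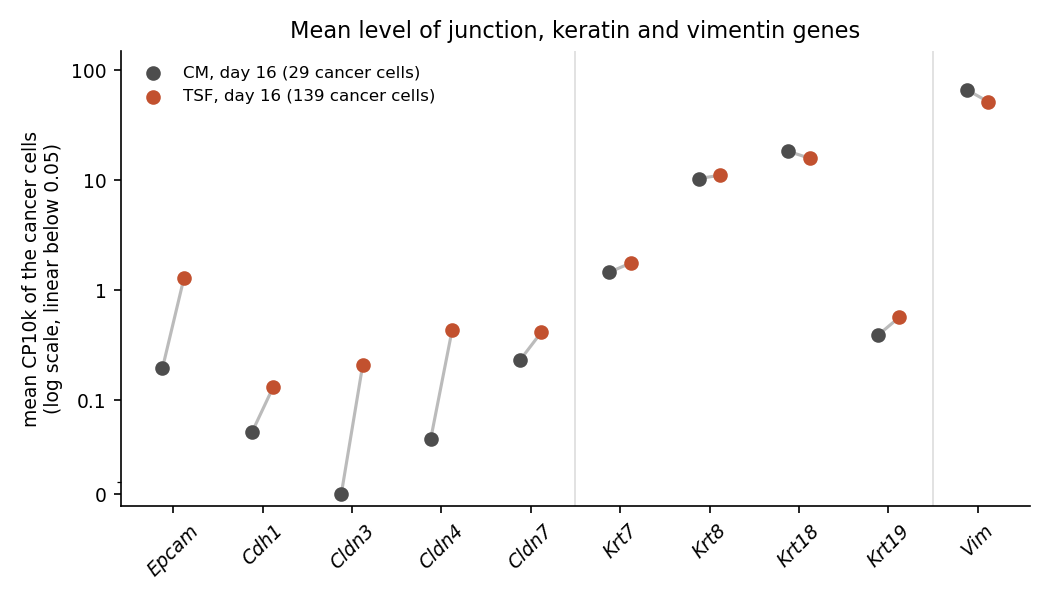
Mean CP10k (vertical axis, logarithmic and linear below 0.05) of the 10 genes in the CM library (gray) and the TSF library (orange) of day 16, with 1 library per group and therefore no error bar. The 5 junction genes on the left are all higher in TSF, and Cldn3 is at 0 in CM. For each keratin and for Vim, the CM point and the TSF point lie close together.

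Epcam (ENSMUSG00000045394, GRCm38 chr17:87635979-87651129, plus strand) had 0.195 CP10k in CM and 1.28 CP10k in TSF, a ratio of 6.56 and a log2 difference of 0.93. It was the only panel gene called at 1.5-fold, where 0.755% of genes were called higher and 1.95% lower. Epcam had a UMI in 8 of 29 CM cells (27.6%, interval 12.7 to 47.2%) and 95 of 139 TSF cells (68.3%, interval 59.9 to 76.0%). Such intervals cover the counting of cells within these 2 libraries and do not test TSF against CM. Among the cells with a UMI the level was 0.707 CP10k in CM and 1.87 CP10k in TSF, so both the share of cells and the level in them were higher in TSF. At the median depth 1 UMI is worth 0.361 CP10k in CM and 0.376 CP10k in TSF.

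Cldn7 (chr11:69964779-69967885, plus strand), the claudin that Epcam binds, was the junction gene next to it in share of cells. It had 0.231 CP10k in CM and 0.415 CP10k in TSF, a ratio of 1.80. A UMI was seen in 9 CM cells (31.0%, interval 15.3 to 50.8%) and 74 TSF cells (53.2%, interval 44.6 to 61.7%), and the intervals overlapped. The ratio of shares was 1.72 (exact interval 0.856 to 3.90). The level in cells with a UMI was nearly equal, 0.743 CP10k in CM and 0.780 in TSF, so for Cldn7 the difference lay in the share of cells.

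Cldn3 and Cldn4 are tight junction claudins whose genes lie 39.3 kb apart on chromosome 5. Cldn3 (chr5:134986214-134987472, plus strand) was listed at 0 in CM, where no cell of 29 had a UMI (a limit of 10.3%, exact interval 0 to 11.9%), and had 0.208 CP10k in TSF with a UMI in 32 cells (23.0%, interval 16.3 to 30.9%). The exact interval of its ratio of shares, TSF over CM, began at 1.71. Cldn3 had passed the filter through TSF alone, which favors a higher share there. Its intervals cover the counting of cells only and do not test TSF against CM. Cldn4 (chr5:134945119-134946934, minus strand) had 0.0449 CP10k in CM and 0.432 CP10k in TSF, a ratio of 9.62. It had a UMI in 3 CM cells (10.3%, interval 2.19 to 27.4%) and 25 TSF cells (18.0%, interval 11.99 to 25.4%), a ratio of shares of 1.74 (exact interval 0.531 to 8.996). Its level in cells with a UMI was 0.434 CP10k in CM and 2.40 CP10k in TSF, a ratio of 5.53, so the Cldn4 difference lay mostly in the level of few cells, and the CM value rests on 3 cells.

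Cdh1 (chr8:106603351-106670246, plus strand), the gene of E-cadherin, was low in both libraries, with 0.0507 CP10k in CM and 0.132 CP10k in TSF, a ratio of 2.60. A UMI was seen in 2 CM cells (6.90%, interval 0.846 to 22.8%) and 35 TSF cells (25.2%, interval 18.2 to 33.2%). The ratio of shares was 3.65 (exact interval 0.938 to 31.3). Among cells with a UMI its level was lower in TSF, 0.523 CP10k against 0.735 CP10k, and Cdh1 alone of the 4 junction genes with a UMI in CM had a ratio under 1 on this measure.

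Krt8 and Krt18, which form the main filament pair of simple epithelia, were the most abundant epithelial genes of the panel. Their genes lie 23.7 kb apart on chromosome 15. Krt8 (chr15:101996698-102004482, minus strand) had 10.3 CP10k in CM and 11.1 CP10k in TSF, a ratio of 1.07. Krt18 (chr15:102028180-102032027, plus strand) had 18.3 CP10k in CM and 15.8 CP10k in TSF, a ratio of 0.863, the only keratin lower in TSF. The quotient of Krt18 over Krt8 was 1.77 in CM and 1.43 in TSF. GENCODE M21 lists a processed pseudogene of Krt8, so reads of Krt8 could be shared with it.

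Krt7 and Krt19, keratins of ducts and glands, were lower in level than Krt8 and Krt18 in both libraries. Krt7 (chr15:101411043-101430313, plus strand) had 1.45 CP10k in CM and 1.76 CP10k in TSF, a ratio of 1.21. It had a UMI in 18 CM cells (62.1%, interval 42.3 to 79.3%) and 85 TSF cells (61.2%, interval 52.5 to 69.3%). Krt19 (chr11:100140810-100148665, minus strand) had 0.386 CP10k in CM and 0.563 CP10k in TSF, a ratio of 1.46, with a UMI in 31.0% of CM cells (interval 15.3 to 50.8%) and 38.1% of TSF cells (interval 30.03 to 46.7%). The intervals of both genes overlapped widely. Krt19 had a share of CM cells equal to that of Cldn7. Its ratio of shares was 1.23 (exact interval 0.601 to 2.83), against 1.72 (0.856 to 3.90) for Cldn7, and these intervals overlapped widely.

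Vim (chr2:13573927-13582826, plus strand) was the highest gene of the panel, with 66.2 CP10k in CM and 51.4 CP10k in TSF, a ratio of 0.777 and a log2 difference of -0.36. Every cancer cell of both libraries had a UMI of Vim. The cells thus carried Krt8, Krt18 and Vim together. In each library Vim was over 3 times Krt18, 3.62 in CM and 3.26 in TSF. The quotient of Vim over Epcam was 339 in CM and 40.2 in TSF, and that of Krt8 over Epcam was 53.0 in CM and 8.65 in TSF. UMIs count RNA molecules by their 5′ end, so these quotients were not divided by gene length, and capture of the molecules of different genes can differ.

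**Figure D2:**
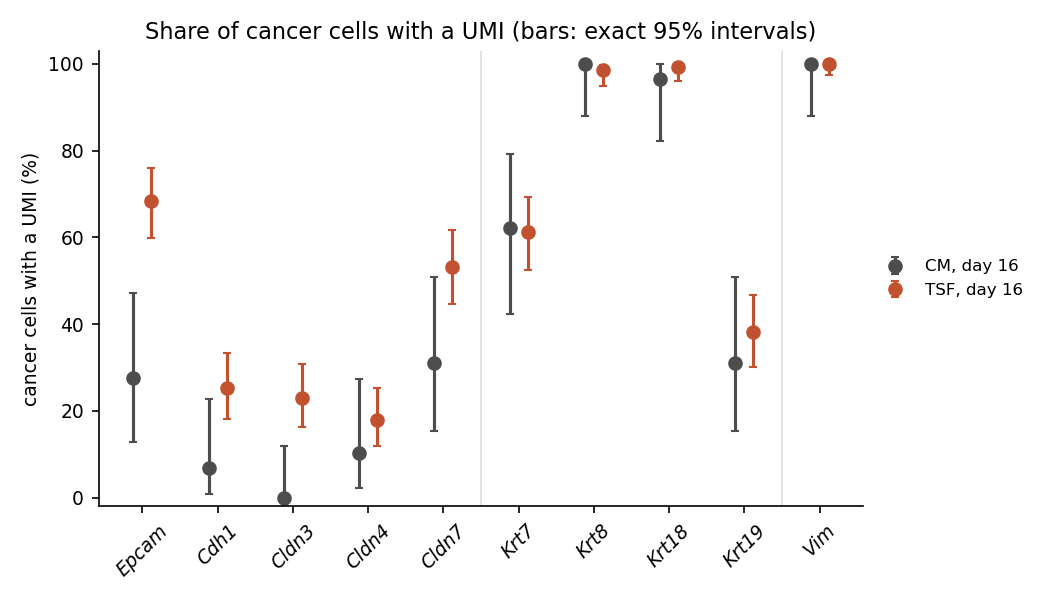
Percent of cancer cells with a UMI of each gene (vertical axis) in CM (gray, 29 cells) and TSF (orange, 139 cells) at day 16, with exact 95% intervals that cover counting error only. The Epcam intervals are 12.7 to 47.2% in CM and 59.9 to 76.0% in TSF. Cldn3 passed the filter through TSF alone. Overlap of intervals was not analysed over all tested genes, so no gene is set apart by it here.

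In order of level in CM the panel ran Vim, Krt18, Krt8, Krt7, Krt19, Cldn7, Epcam, Cdh1, Cldn4 and Cldn3. In TSF the order was Vim, Krt18, Krt8, Krt7, Epcam, Krt19, Cldn4, Cldn7, Cldn3 and Cdh1. Each level is 1 value per library, so no neighbors in either order can be told apart beyond a spread between replicates.

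A UMI was seen in a larger share of TSF cells for 7 of the 10 genes, 5 of 5 junction genes and 2 of 4 keratins, where 49.1% of tested genes had a larger share. In this measure 3 of the 10 genes were at least 20 percentage points higher in TSF, namely Epcam (40.8 points), Cldn3 (23.0) and Cldn7 (22.2), where 3.09% of tested genes were that much higher and 3.33% that much lower. Cdh1 and Cldn3 had passed the filter through TSF alone, which favors a larger share there, so both counts are a description only. The size of 20 points was chosen after the values were seen. Cdh1 lay just below it at 18.3 points, Cldn4 at 7.65 and Krt19 at 7.10. The others, Krt7, Krt8, Krt18 and Vim, lay between -1.44 and 2.73 points, and the last 3 had a UMI in nearly all cells, where a share cannot move far. Over all tested genes the median difference was -0.15 points, and 5% of genes lay below -17.7 and 5% above 17.5 points.

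**Figure D3:**
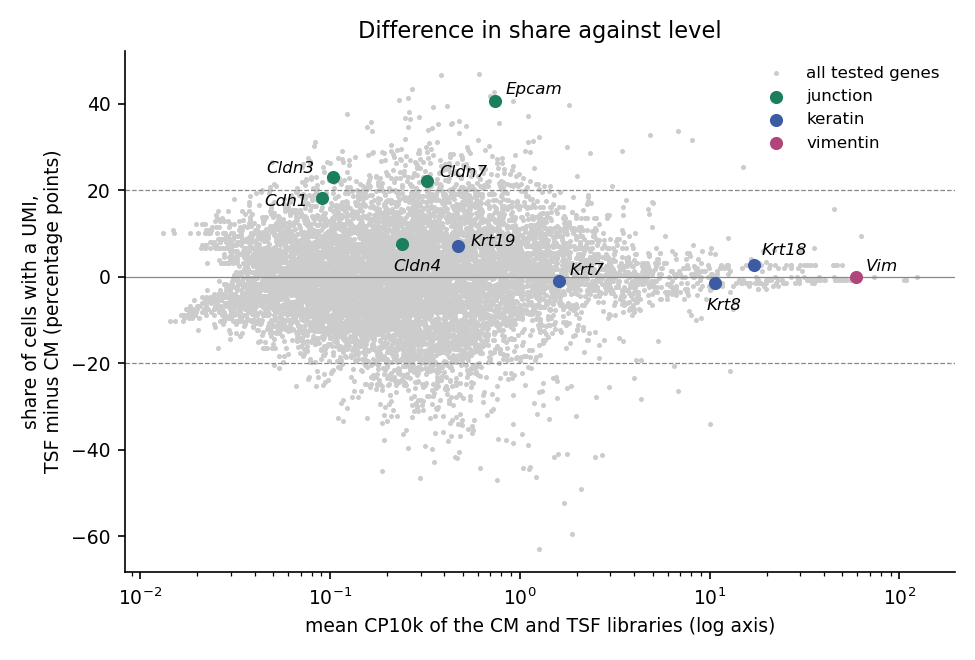
Difference in the percent of cancer cells with a UMI, TSF minus CM (vertical axis, percentage points), against the mean CP10k of both libraries (horizontal axis, logarithmic) for the 10201 tested genes (gray) and the panel (junction green, keratin blue, vimentin purple). Dashed lines mark 20 points. Epcam, Cldn3 and Cldn7 lie above the upper line, and Krt7, Krt8, Krt18 and Vim lie near 0. Krt19 (7.1 points), Cldn4 (7.65) and Cdh1 (18.3) lie between.

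Set against each other, the keratins had a median log2 difference of 0.13 (from -0.20 to 0.17) and the junction genes one of 0.27 (from 0.11 to 0.93). The median of all tested genes was -0.03. The difference between the medians, keratins minus junction genes, was -0.14. It was -1.44 with a pseudocount of 0.1, with which 5 of 5 junction genes and 0 of 4 keratins were called higher at 1.5-fold, where 7.33% of tested genes were called higher and 17.3% lower. Of these 5, Cdh1 and Cldn3 had passed the filter through TSF alone, which favors a higher value there, so the count is a description and not support for a contrast with the keratins. Among the 7797 tested genes with a mean of 0.05 to 1 CP10k, where all 5 junction genes lie, 7.21% were called higher with that pseudocount. Cldn3, at 0 in CM, was itself the median junction gene, and without it the junction median was 0.33.

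**Figure D4:**
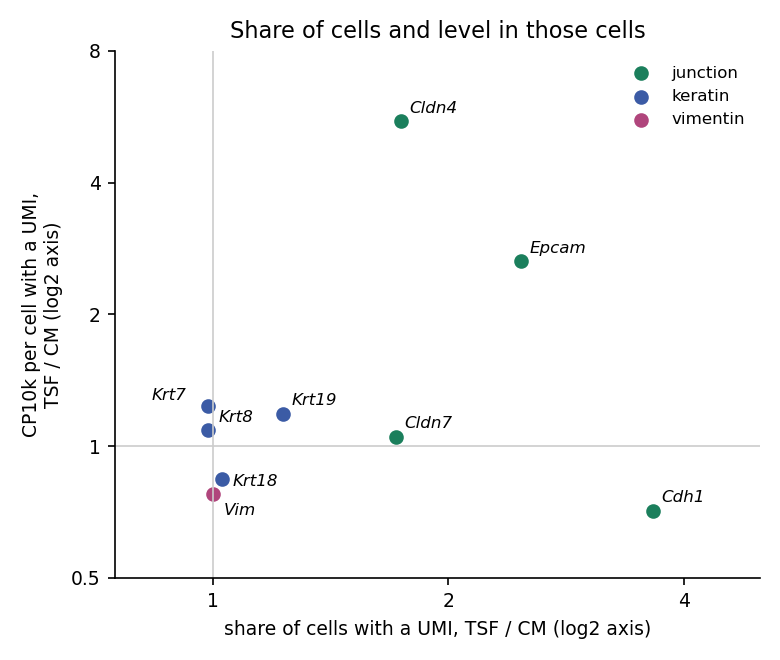
Ratio of the share of cells with a UMI (horizontal axis) and ratio of the CP10k in those cells (vertical axis), TSF over CM on log2 axes, for the 9 genes with a UMI in CM cells (junction green, keratin blue, vimentin purple). The keratins and Vim sit near 1 on both axes, and Cldn7 is displaced along the share. Epcam and Cldn4 are displaced along both, Cldn4 more along the level (share ratio 1.74, level ratio 5.53). Cdh1 lies above 1 in share and below 1 in level (3.65 and 0.712).

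The other keratins were few. Of 12 further keratins fixed as a list, 10 were in the table and 4 passed the filter (Krt10, Krt13, Krt14 and Krt16), none past 1.5-fold, with a median log2 difference of 0.01. Krt10, a keratin of the upper skin, had 0.265 CP10k in CM and 0.227 in TSF. Krt14, a keratin of basal cells, had a UMI in 0 of 29 CM cells, a limit of 10.3%, and in 22 TSF cells (15.8%). Krt15 had a UMI in 2 and 10 cells, and Krt5, the usual partner of Krt14, in none.

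Among the 11 tested genes of a list of keratin partners and linkers, 1 was lower past 1.5-fold, and the median was -0.08. This was Sfn (14-3-3 sigma), with 2.25 CP10k in CM and 1.12 CP10k in TSF, a log2 difference of -0.62. Plec (plectin, which links filaments to other structures) had 3.14 CP10k in CM and 2.92 in TSF, and Ywhae had 7.22 and 5.62. The list also holds Krtcap2 (2.45 and 3.35 CP10k), a subunit of the enzyme that attaches sugar chains to proteins, and Krtcap3 (0.601 and 0.874), which are named after keratinocytes and are not known as filament partners. These were higher in TSF, and the other 9 tested genes were lower at any size.

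Of the other 16 claudins on the list, 14 were in the table and Cldn12 alone passed the filter, with 0.0904 CP10k in CM and 0.0564 CP10k in TSF. Cldn18, a claudin of alveolar cells, had a UMI in 0 CM and 2 TSF cells, and Cldn5, of blood vessels, in 0 and 6, and Cldn9 in 2 and 0. The 10 tested tight junction genes outside the claudins had a median log2 difference of 0.04, with none past 1.5-fold. Ocln (occludin) had a UMI in 0 CM cells and 23 TSF cells (16.5%). Lsr, a protein of tricellular contacts, had a UMI in 58.6% of CM cells and 82.0% of TSF cells, and its CP10k was 0.504 in CM and 0.705 in TSF. Tjp1 (ZO-1) had 0.599 and 0.638 CP10k, F11r (JAM-A) 0.648 and 0.682, and Cgnl1 1.11 and 1.21.

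The 11 tested adherens junction genes had a median of -0.03, and none was past 1.5-fold. Ctnnb1 (beta-catenin), which binds the tail of E-cadherin, had 1.62 CP10k in CM and 2.14 in TSF, and Ctnna1 (alpha-catenin) had 1.59 and 1.31. Vcl (vinculin) had 1.36 CP10k in CM and 0.622 in TSF, a log2 difference of -0.54, and Afdn (afadin) had 0.612 and 0.765. The 6 tested desmosome genes had a median of -0.04. Of these Perp had 0.149 CP10k in CM and 0.469 in TSF, Dsp (desmoplakin) 0.283 and 0.245, Pkp3 (plakophilin-3) 0.365 and 0.187, and Jup (plakoglobin) 0.260 and 0.233. The medians of these 3 junction lists, from -0.04 to 0.04, were below that of the 5 junction genes of the panel.

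The list of Epcam partners had 6 tested genes and a median of 0.07. St14 (matriptase, a membrane protease known to cleave Epcam) had a UMI in 3 CM cells (10.3%) and 64 TSF cells (46.0%), and 0.0550 CP10k in CM against 0.274 in TSF. Its inhibitors Spint1 and Spint2 had UMIs in 55.2% and 89.7% of CM cells and in 58.3% and 96.4% of TSF cells. The tetraspanin Cd9 had 12.7 CP10k in CM and 13.8 CP10k in TSF, Cd44 had 3.12 and 1.95, and Cd151 had 2.61 and 1.81.

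**Figure D5:**
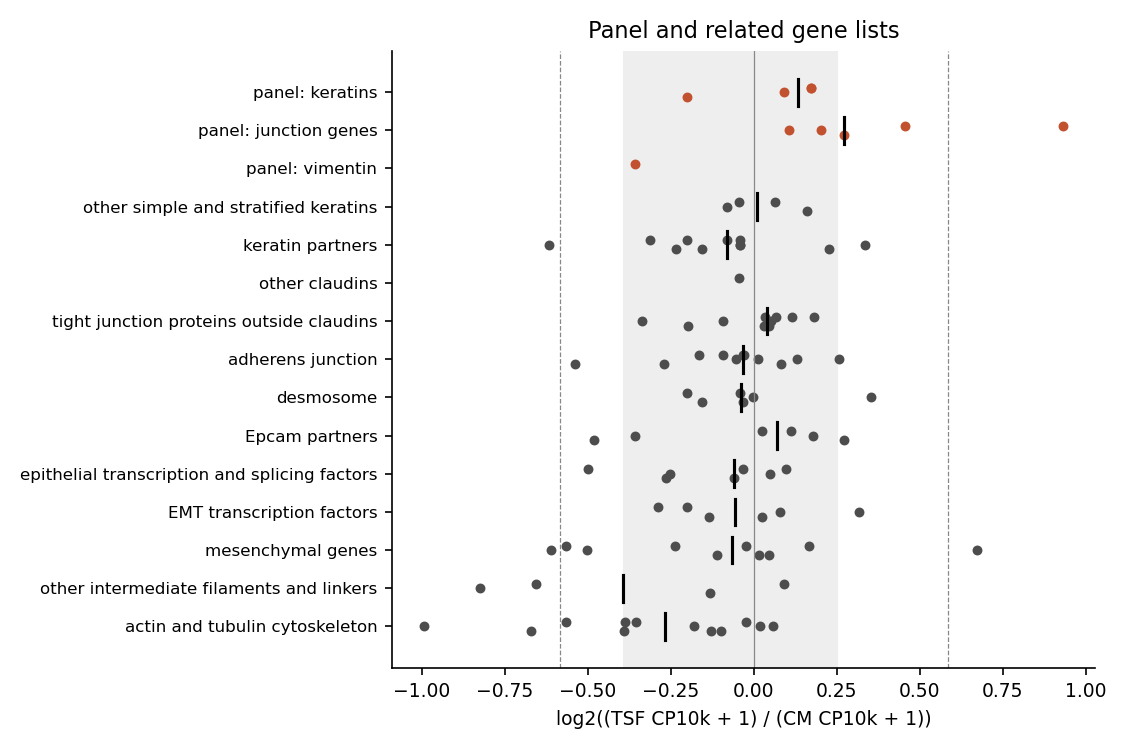
Log2 difference of CP10k plus 1, TSF over CM (horizontal axis), of every tested gene of the panel (orange) and of 12 related lists (dark gray), with the median of each list of several genes as a black bar. The gray band holds the middle 90% of all tested genes, from -0.39 to 0.25, dashed lines mark 1.5-fold, and of the panel Epcam alone lies past them.

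The 7 tested epithelial factors had a median of -0.06 and none past 1.5-fold, with Klf5 at 1.39 CP10k in CM and 0.693 in TSF (log2 difference -0.50) Gata3 at 0.653 and 0.767, Klf4 at 0.725 and 0.653, and Tfap2a at 0.871 and 0.571. Grhl2, a known activator of Epcam and Cdh1, had 0.0753 CP10k in CM and 0.0519 CP10k in TSF. Esrp1 and Esrp2, splicing factors of epithelia, had UMIs in 0 CM cells and in 8 and 5 TSF cells.

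The 6 tested EMT factors had a median of -0.06, and none was past 1.5-fold. Snai1 (Snail) had 1.15 CP10k in CM and 0.764 in TSF, and Zeb2 had 0.764 and 0.533, a ratio of 0.698. Twist1 went the other way, with 0.325 CP10k in CM and 0.650 in TSF and a UMI in 48.3% of CM cells and 71.2% of TSF cells. Zeb1 had 0.0858 CP10k in CM and 0.104 CP10k in TSF, and Tcf4 had 2.11 and 2.29.

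Of 10 tested mesenchymal genes, 1 was higher and 1 lower past 1.5-fold, and the median was -0.07. Lgals1 (galectin-1) had 56.4 CP10k in CM and 90.6 CP10k in TSF, a log2 difference of 0.67. Fn1 (fibronectin) had 20.1 CP10k in CM and 12.9 CP10k in TSF, a log2 difference of -0.61. S100a4 (11.6 and 7.51 CP10k) and Itgb1 (6.24 and 4.11 CP10k) were lower in TSF like Vim, and Cdh2 (N-cadherin) had a UMI in 0 CM cells and 1 TSF cell.

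Of 4 tested filament genes besides keratins and Vim, 2 were lower past 1.5-fold, with a median of -0.39. Lmna (lamin A and C, of the nuclear envelope) had 13.5 CP10k in CM and 7.15 in TSF (log2 difference -0.83), and Nes (nestin) had 1.24 and 0.419 (-0.66). The B-type lamins Lmnb1 (0.695 and 0.546 CP10k) and Lmnb2 (0.0268 and 0.0937 CP10k) lay on either side of no difference. Of 12 actin, tubulin and actin-binding genes, 2 were lower past 1.5-fold, with a median of -0.27. These were Actg1, with 67.3 CP10k in CM and 33.3 CP10k in TSF (-0.99), and Cfl1 (cofilin), with 15.6 and 9.42 (-0.67). Actb, with 51.6 and 40.1 CP10k, had the log2 difference of Vim, -0.36, Tmsb10 had 56.9 and 53.0, and Pfn1 had 19.3 and 16.9. Among 156 genes with a mean of at least 10 CP10k, where Krt8, Krt18 and Vim lie, 14.1% were higher and 10.3% lower past 1.5-fold.

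The genes nearest to Krt18 in the pair of levels, by the distance of log2 CP10k plus 1 over the 2 libraries, were Pfn1 (distance 0.12), Ctsl (0.19) and Rpl17 (0.19). Nearest to Epcam were Hotairm1 (0.12), Thy1 (0.13) and CAAA01147332.1 (0.15). Thy1 had 0.263 CP10k in CM and 1.13 CP10k in TSF with a UMI in 34.5% of CM cells (interval 17.9 to 54.3%) and 76.3% of TSF cells (interval 68.3 to 83.1%). The reporter CD90.1 had 0.0343 CP10k in CM and 0.235 CP10k in TSF, also higher in TSF. The reporter is a variant of Thy1, so reads of the 2 could be counted for either. Such a distance over 2 values describes level and difference only.

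Markers of other lung cells were set beside the panel, since alveolar and airway cells also carry keratins, claudins and Epcam, and leukocytes carry Vim. Of 8 alveolar type 2 markers, 4 were at 0 in both libraries, among them Sftpc and Sftpb, and the list summed to 0.591 CP10k in CM and 0.172 CP10k in TSF. Of that sum Sftpa1 made 0.363 in CM, from 2 cells, and 0 in TSF, and Abca3 made 0.228 and 0.125. Sftpd had a UMI in 0 CM cells and 1 TSF cell. The 7 alveolar type 1 markers summed to 0.0572 CP10k in CM and 0.349 CP10k in TSF, led by Cldn18 (0 and 0.113, in 2 TSF cells) and Hopx (0 and 0.0609, in 8 TSF cells), while Rtkn2 had 0.0406 and 0.0420. This list moved in the direction of the junction genes, and its part in their difference was not tested. The 8 club and ciliated cell markers summed to 0.161 CP10k in CM and 0.0145 CP10k in TSF, 5 of them were at 0, and Scgb1a1, Tppp3 and Foxj1 had a UMI in at most 3 cells of a library.

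The 9 leukocyte markers summed to 21.5 CP10k in CM and 4.35 CP10k in TSF, nearly all of it Cd74 (21.5 and 4.23), the MHC class II invariant chain, which other cells can make as well. The 8 leukocyte markers without Cd74 summed to 0.00958 CP10k in CM and 0.121 in TSF, and Ptprc (CD45) had a UMI in 0 CM and 4 TSF cells, like Tyrobp, and Coro1a in 0 and 9. The 7 neutrophil markers summed to 0 CP10k in CM and 1.20 CP10k in TSF, led by S100a9 (0.685, in 4 cells) and S100a8 (0.300, in 2 cells), with Il1b in 5 cells. The 8 endothelial markers summed to 0.0588 and 0.326 CP10k, led by Tie1 with Cldn5 and Pecam1, and the 9 fibroblast and mural markers to 0.498 and 1.20, led by Dcn and Pdgfra with Inmt. These lists, other than that of leukocytes with Cd74, had higher sums in TSF, as the junction genes did, and their part in the panel's differences was not tested.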

How the data were processed

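Single-cell RNA of mouse lung was measured by the authors in 5 libraries of 4 groups (5′ 10x Genomics kit), and the CM and TSF libraries of day 16 were compared here. Libraries held 13240822 to 21451787 UMIs. Per the labels, Cell Ranger and Seurat 4.1.0 were used with mm10 (GRCm38.p6). By the study's methods an added CD90.1 sequence was mapped, and ambient RNA was removed with a modified SoupX, in raised strength and adapted to the depth of each cell, which can take UMIs from low genes. The deposited cell table gives UMI counts (800 or more in each cell), genes (202 or more) and the percent of mitochondrial UMIs (up to 9.99). The authors named cells by hand from clusters and recognised cancer cells by CD90.1. For these, the deposited gene table gives mean CP10k per library, the count of cells with a UMI, and that count in percent. Its fold changes, p-values and rankings, and a file of gene set scores, all by the authors, were not used. The cell table also names 2 libraries that are not described in the labels used here, and these were left out. Without a matrix of single cells, shares could not be thinned to equal depth, and background UMIs in other cell types were not analysed here.

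The panel and the gene lists were chosen with earlier results of these data known. Named genes were the panel, from each of 19 other lists the 4 with the highest mean CP10k (3 for marker lists) and any past 1.5-fold, and the 3 genes nearest to Krt18 and to Epcam. Other names were added after their values were seen. Log2 differences are TSF over CM with a pseudocount of 1. Shares have exact Clopper-Pearson intervals at the 95% level, ratios of shares have exact conditional intervals, and a count of 0 allows 3 counts of the total. All cover counting error only. The functions were tested on simulated data. Gene positions are from GENCODE M21 on GRCm38. Computations used scipy 1.17.1, pandas 2.3.3 and numpy 2.4.6 in Python 3.11.15, with figures from matplotlib 3.10.9.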

Additional observations from a re-analysis of the deposited data

How the results depend on the processing

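With 1 library per group, no library could be left out and no result had a test. The difference of keratins minus junction genes kept its sign in every alternative tried and was -1.44 with a pseudocount of 0.1, which lets low genes move. Every alternative used the same libraries, and Cdh1 and Cldn3 had passed the filter through TSF alone. The kept sign is therefore a description only. Leaving out each of the 9 keratins and junction genes in turn gave -0.23 to -0.10. The number of genes called higher at 1.5-fold was 77 and became 748 with a pseudocount of 0.1, 142 with CP10k rescaled without ribosomal protein and mitochondrial genes, 22 among genes with a mean of at least 10 CP10k, 13 at 2-fold and 315 by a share difference of 20 points, an alternative chosen after seeing the data. The number called lower was 199 and became 1762, 16, 54 and 340 for the pseudocount, the high genes, the 2-fold threshold and the share, and stayed within 1.5 times under the rescaling. Single panel genes moved by over 1.5-fold in 4 comparisons, namely Epcam, Cldn3 and Cldn4 with a pseudocount of 0.1 and Cldn4 in cells with a UMI, while 35 stayed within it. Cdh1 alone changed sign, to -0.19 in cells with a UMI from 0.11 over all cells, and it was not called in either. The 29 CM cells limit every share. No paired analysis was possible because each group of day 16 has 1 library.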
